A study of Mus musculus with 8 samples.

Results

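The AP-1 and immediate early genes examined here are Fos, Fosb, Fosl1, Fosl2, Jun, Junb, Jund, Atf3, Egr1 and Ier2. They were taken by gene symbol from a table of 23284 genes, in which all 10 symbols were found. The libraries were made from whole brains of wild-type C57BL/6J mice that were dissociated with enzymes and mechanically and then sorted on magnetic beads for GLAST, the glutamate transporter of astrocytes and radial glia. There were 4 libraries from postnatal day 8 (P8), labelled astrocyte precursors, and 4 from postnatal day 0 (P0), labelled radial glia. They are called P8 1 to P8 4 and P0 1 to P0 4 by their replicate numbers. The labels do not say whether replicates were separate animals or pools, so p-values measure the spread between these libraries, part of which may be technical. Libraries held 63131890 to 94308235 counts at P8 and 30708719 to 54615722 at P0. Slc1a3, which encodes GLAST, stood at 3718 to 5029 CPM (counts scaled to the total of their library) at P8 and at 228 to 331 CPM at P0. In the P0 libraries, labelled radial glia, markers of the choroid plexus and ependyma summed to 27450 to 65410 CPM and those of radial glia to 1815 to 2494 CPM. Most of the choroid plexus sum was Ttr, the transthyretin gene (22940 to 61700 CPM at P0), and the other 9 markers of that list summed to 2344 to 4585 CPM at P0.

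AP-1 is a dimer of basic leucine zipper proteins. FOS proteins do not form stable dimers with each other and bind DNA mainly as partners of JUN proteins, JUN proteins can also pair with each other, and ATF3 pairs with JUN proteins or with itself. Most of these genes are immediate early genes: they are transcribed within minutes of a growth factor, calcium or stress signal, without new protein synthesis, and their short-lived mRNAs disappear soon afterwards. In the brain they report neuronal activity and the response of glia to injury. Their mRNAs are also known to accumulate in cells while tissue is being dissociated. No undissociated tissue was compared here, so levels present in the brain and levels gained during preparation cannot be told apart.

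Fosl2, Fos and Egr1 were lower at P8, Atf3 was higher, and no JUN gene was called. Fosl2 was 3.51-fold lower, Egr1 2.20-fold lower and Fos 1.69-fold lower at P8, and Atf3 was 2.92-fold higher (quasi-likelihood test of edgeR, p adjusted by Benjamini-Hochberg among 16808 tested genes and under 0.05). In sorted bulk RNA, fewer cells of a type and less RNA per cell cannot be told apart. Of the 10 genes, all of which passed the filter on low counts, 3 were thus called lower and 1 higher at P8, and 6 were not called. Among all genes tested 49.5% were called, 25% lower and 24.5% higher. The counts are near or below that background and are not a result about these genes as a set. In 2 of the 10 genes every P8 library was below every P0 library, in 0 every P8 library was above, and in 8 the ages overlapped. Among all genes tested the ages did not overlap in 47.2%, with P8 below in 26.3% and above in 20.9%. The median log2 fold change of the 10 genes was -0.42, against 0.0437 for all genes tested. Of the 10 genes, 5 had in the authors' deposited table a lower value at P8 with a false discovery rate under 0.05 and 1 a higher value, where 24.4% and 24.2% of 15546 genes did.

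**Figure D1:**
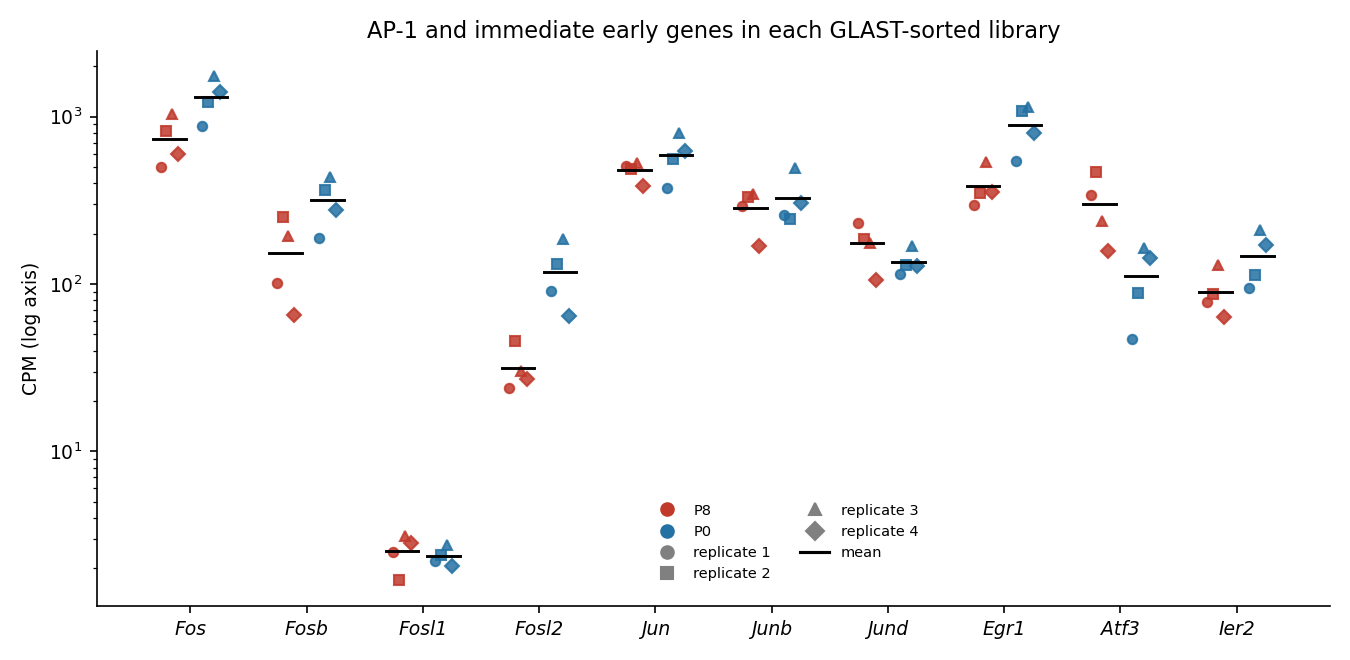
CPM (log axis) of the 10 genes in each library, with P8 in red and P0 in blue, 1 marker shape per replicate number and the mean as a black bar. The P8 and P0 points of Fosl2 and Egr1 do not overlap, and those of the other 8 genes do.

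**Figure D2:**
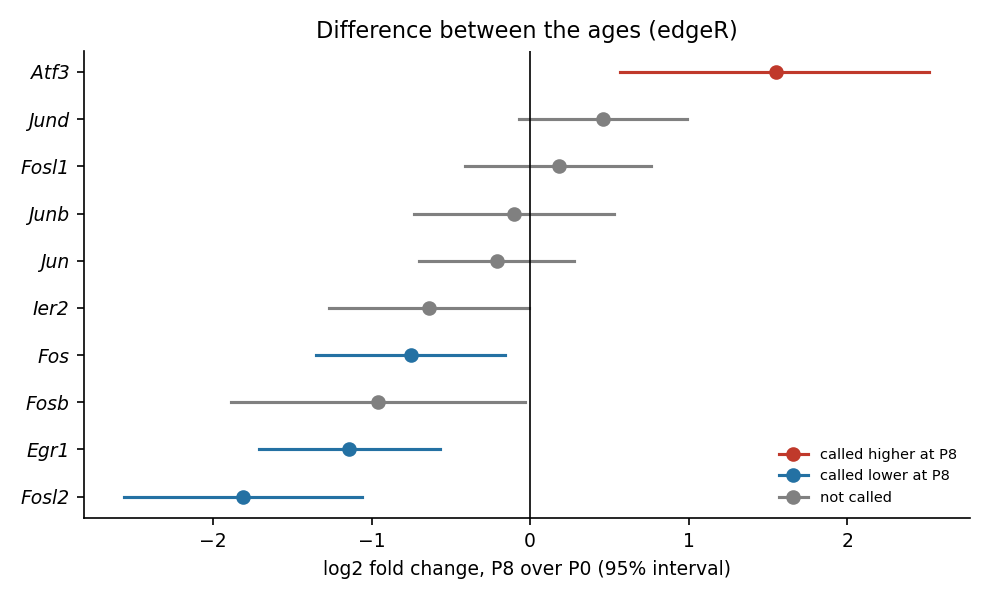
Log2 fold change of P8 over P0 with its 95% interval from the edgeR fit, coloured by call. Fosl2, Egr1 and Fos lie left of 0, Atf3 lies right of it, and the intervals of Jun, Junb, Jund and Fosl1 include 0. The intervals are not adjusted for the number of genes, so those of Fosb and Ier2 exclude 0 although neither was called.

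The promoters of the called genes Fosl2, Fos and Atf3 are shown with that of Jun, which was not called, because the control regions of these genes are what signals act on. The RefSeq promoter table (GRCm38.p6) matched 7 of the 10 genes. The 250 bases before the annotated start are printed for 4 of these, 5′ to 3′ on the strand of the gene, and capitals mark matches to the motifs described next. The stretches lie at chr5:32136222-32136471 (plus strand) for Fosl2, chr12:85473640-85473889 (plus strand) for Fos, chr1:191183334-191183583 (minus strand) for Atf3 and chr4:95052223-95052472 (minus strand) for Jun.
Fosl2: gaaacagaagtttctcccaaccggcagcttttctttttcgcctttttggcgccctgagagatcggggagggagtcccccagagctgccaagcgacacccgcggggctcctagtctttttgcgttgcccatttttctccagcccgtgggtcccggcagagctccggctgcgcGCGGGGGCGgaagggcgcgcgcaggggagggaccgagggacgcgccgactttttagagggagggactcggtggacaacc
Fos: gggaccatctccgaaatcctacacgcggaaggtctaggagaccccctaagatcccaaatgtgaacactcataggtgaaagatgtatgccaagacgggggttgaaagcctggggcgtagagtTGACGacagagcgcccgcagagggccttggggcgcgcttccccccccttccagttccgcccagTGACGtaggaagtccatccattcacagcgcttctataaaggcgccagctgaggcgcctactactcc
Atf3: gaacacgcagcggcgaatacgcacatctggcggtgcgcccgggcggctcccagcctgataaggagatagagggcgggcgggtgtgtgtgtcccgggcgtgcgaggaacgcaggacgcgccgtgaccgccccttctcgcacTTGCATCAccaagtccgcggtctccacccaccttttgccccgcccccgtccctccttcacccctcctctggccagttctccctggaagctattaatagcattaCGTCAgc
Jun: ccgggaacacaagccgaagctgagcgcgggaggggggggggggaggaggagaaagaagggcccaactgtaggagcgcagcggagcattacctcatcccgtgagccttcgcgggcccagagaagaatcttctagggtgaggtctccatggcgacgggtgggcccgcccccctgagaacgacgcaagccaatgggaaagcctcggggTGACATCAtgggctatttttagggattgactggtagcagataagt

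Motifs were searched on both strands of these 250 bases in the 7 matched genes and in all 32851 promoters of the table. TGACG, the core of the cyclic AMP response element, was found in 4 of the 7 genes (Fos, Fosb, Junb and Atf3) and in 17.8% of all promoters. In Fos it lies at -129 to -125 and at -66 to -62 from the start. GCGNGGGCG, a site of the EGR zinc finger proteins, was found in Fosl2 at -79 to -71 and in Fosb at -50 to -42, and in 4.7% of all promoters. TGATGNAA, a site of ATF4 dimers, was found only in Atf3 among the 7, at -110 to -103 on the minus strand, and in 3.45% of all promoters. TGACATCA, a form of the AP-1 site that JUN and ATF2 dimers bind, was found only in Jun among the 7, at -45 to -38, and in 2.93% of all promoters. The CArG box of serum response factor (1.47% of all promoters), the full TGACGTCA (1.55%, and it contains TGACG) and TGANTCA, the classical AP-1 site (6.75%), had 0 matches among the 7 in this window. Sequence beyond these 250 bases was not searched, so sites there would not have been seen.

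Per length of transcript, Fos was the highest of the 10 genes at both ages. It stood at 353 ± 114 RPKM (CPM per kilobase of gene length) at P8 and at 630 ± 174 RPKM at P0 (SD, n = 4). By mean RPKM it ranked 202 among all genes at P8 and 54 at P0. At P8 the order below Fos was Junb (155 ± 43.9), Atf3 (153 ± 68.2), Jun (150.3 ± 19.7) and Egr1 (125 ± 34.3 RPKM), and neighbours among these 4 overlapped in range. Jund (60.8 ± 18), Ier2 (58.9 ± 18.6) and Fosb (40.5 ± 22.5 RPKM) followed and again overlapped as neighbours. At P0 the order below Fos was Egr1 (291 ± 89.7), Jun (185 ± 54.4), Junb (177 ± 61.9), Ier2 (97.2 ± 35.1), Fosb (84.1 ± 28.9), Atf3 (56.2 ± 27.2) and Jund (47.1 ± 8.10 RPKM), with each neighbour overlapping the next. Fosl2 and Fosl1 stood below all others at both ages, Fosl2 at 5.39 ± 1.65 RPKM at P8 and 20.2 ± 9.11 RPKM at P0 and Fosl1 at 1.49 ± 0.36 RPKM at P8 and 1.39 ± 0.17 RPKM at P0. Atf3 changed place most, with position 3 at P8 and position 7 at P0 in this order.

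Among the 4 FOS genes, Fosl2 had the largest fold change. Fosl2 encodes FRA2, a FOS protein without the strong activation domain of FOS, and lies at chr5:32438845-32460204 (plus strand, NCBIM37, the assembly that mm9 stands for). It stood at 23.8, 45.6, 30.2 and 26.97 CPM in P8 1 to P8 4, against 90.4, 132, 187 and 64.7 CPM in P0 1 to P0 4. Every P8 library was below every P0 library. The log2 fold change was -1.81 ± 0.33 (SE, edgeR adjusted p = 0.00159), and the call was kept under each of the 15 other settings tried.

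Fos, the founding member of the family, lies at chr12:86814840-86818223 (plus strand). It stood at 500.5, 826, 1032 and 598 CPM in P8 1 to P8 4, against 878, 1230, 1752 and 1413 CPM in P0 1 to P0 4. The ages overlapped, since P8 3 was above P0 1. Fos fell at P8 by 0.75 on the log2 scale (SE 0.26, edgeR adjusted p = 0.0386, from 0.0155 to 0.113 over the other settings). The call was lost without P0 2 (edgeR adjusted p = 0.0544), P0 3 (0.113), P0 4 (0.0731), P8 1 (0.106) or P8 4 (0.102), with the sign kept each time. In the authors' deposited table Fos had a log2 fold change of -0.84 and a false discovery rate of 0.00744.

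Fosb, whose short splice form ΔFOSB is long-lived in neurons, lies at chr7:19888070-19895394 (minus strand). It stood at 101.5, 251, 193 and 65.3 CPM in P8 1 to P8 4, against 187, 367, 439 and 277 CPM in P0 1 to P0 4. P8 2 and P8 3 lay within the range of P0, and the gene was not called (log2 fold change -0.96 with SE 0.42, edgeR adjusted p = 0.082). It was called lower without P8 2 (edgeR adjusted p = 0.0195) and with DESeq2 (0.0418), with a range of 0.0195 to 0.199 over the other settings. The authors' deposited table gave it a false discovery rate of 0.00666. Splice forms were not resolved in the gene counts.

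Fosl1, which encodes FRA1, was the scarcest of the 10 genes. It had 119 to 237 counts per library at P8 and 74 to 150 at P0, or 2.54 ± 0.62 CPM at P8 and 2.36 ± 0.29 CPM at P0 (SD, n = 4). The ages overlapped and the log2 fold change was 0.18, with a 95% interval of -0.41 to 0.76 (edgeR adjusted p = 0.599). It lies at chr19:5447703-5455945 (plus strand). An exon of Fosl1 overlaps Ccdc85b on the other strand, and as the library kit does not mark strand, reads of the pair cannot be told apart there.

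The JUN genes encode the main partners of FOS proteins, and none of the 3 was called. Jun lies at chr4:94715725-94718913 (minus strand), and its exons overlap those of a processed transcript on the other strand. It stood at 511, 489, 528 and 388 CPM in P8 1 to P8 4, against 376, 556, 795 and 624 CPM in P0 1 to P0 4. All 4 P8 libraries lay between the lowest and the highest P0 library. The log2 fold change was -0.21, with a 95% interval of -0.70 to 0.28 (edgeR adjusted p = 0.451).

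Junb, an early gene like Jun but a weaker activator, lies at chr8:87500811-87502617 (minus strand). It stood at 294, 332, 346 and 169 CPM in P8 1 to P8 4, against 257, 246, 492 and 306 CPM in P0 1 to P0 4. The ages overlapped, with a log2 fold change of -0.10 and a 95% interval of -0.73 to 0.53 (edgeR adjusted p = 0.782). Its sign was positive without P0 3 (0.16) or without P8 4 (0.09), so no direction is given.

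Jund is the steadily expressed member of the family and responds least to stimulation. It lies at chr8:73221638-73224515 (plus strand), with an exon overlapping a predicted gene on the other strand. It stood at 231, 186, 177 and 106 CPM in P8 1 to P8 4, against 115, 130, 169 and 128 CPM in P0 1 to P0 4. P8 1 to P8 3 were above every P0 library and P8 4 was below all of them. The log2 fold change was 0.46, with a 95% interval of -0.07 to 0.99 (edgeR adjusted p = 0.131). Jund was called higher without P8 4 (edgeR adjusted p = 0.0161), with a range of 0.0161 to 0.348 over the other settings.

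Atf3, a stress-induced member of the ATF family that mostly represses transcription as a homodimer, moved against the other called genes. It lies at chr1:192994175-193007219 (minus strand). It stood at 342, 469.5, 237 and 158 CPM in P8 1 to P8 4, against 47.1, 87.9, 165 and 144 CPM in P0 1 to P0 4. The ages overlapped at 1 point, with P8 4 between P0 4 and P0 3. Atf3 rose at P8 by 1.55 on the log2 scale (SE 0.43, edgeR adjusted p = 0.0147). The call was kept without any 1 library, with edgeR adjusted p from 0.00836 to 0.0417. Microglia and macrophage markers were higher at P8 for 8 of 10 genes and lower for 0, with summed levels of 1521 to 5144 CPM at P8 and 482 to 1441 CPM at P0. Of these, Csf1r stood at 1599, 2237, 1155 and 607.5 CPM in P8 1 to P8 4, against 171, 412, 595 and 544.5 CPM in P0 1 to P0 4. The libraries stood in the same order for Csf1r as for Atf3 within each age. The summed markers were highest in P8 2 among the P8 libraries, as Atf3 was. Among the P0 libraries they were highest in P0 4, and Atf3 was highest in P0 3. Fos, Jun and Ier2 had the same order of P0 libraries as Atf3 but other orders of P8 libraries. The part of these cells in the difference of Atf3 was not tested.

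Egr1 and Ier2 are early genes outside AP-1. Egr1 encodes a zinc finger transcription factor and lies at chr18:35020861-35024638 (plus strand), with an exon overlapping a predicted gene on the other strand. It stood at 295, 351, 537 and 355 CPM in P8 1 to P8 4, against 546, 1089, 1140 and 803 CPM in P0 1 to P0 4. The ages did not overlap, although P8 3 and P0 1 differed little. Egr1 fell at P8 by 1.14 on the log2 scale (SE 0.25, edgeR adjusted p = 0.00442), and the call was kept under each of the 15 other settings.

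Ier2, whose nuclear product has no known DNA-binding domain of its own, lies at chr8:87185230-87186751 (minus strand). It stood at 78.5, 87.4, 129 and 63.4 CPM in P8 1 to P8 4, against 94.7, 114, 211 and 172 CPM in P0 1 to P0 4. P8 3 lay within the range of P0, and Ier2 was not called (log2 fold change -0.64 with SE 0.28, edgeR adjusted p = 0.0838). Leaving out P0 1 (edgeR adjusted p = 0.0365) or P8 3 (0.041) gave a lower call, with a range of 0.0365 to 0.238 over the other settings. The authors' deposited table gave it a log2 fold change of -0.73 and a false discovery rate of 0.0278.

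The libraries of an age ranked alike for many of these genes. At P8, 6 were highest in P8 3 and 6 lowest in P8 4, and of all tested genes 36.8% were highest in P8 3 and 18.5% lowest in P8 4. At P0, all 10 were highest in P0 3 and 7 lowest in P0 1, and of all tested genes 21.8% were highest in P0 3 and 30.7% lowest in P0 1. The summed level of the 10 genes was 2379, 3040, 3213 and 1931 CPM in P8 1 to P8 4, against 2595, 3952, 5353 and 3933 CPM in P0 1 to P0 4. The sums overlapped, since P8 2 and P8 3 were above P0 1. The median coefficient of variation of the 10 genes was 30.1% at P8 and 32.6% at P0, against 16.1% at P8 and 24.9% at P0 for all genes tested. Of the 10 genes, 9 varied more than that median at P8 and 8 did at P0. Without P0 3, Fosl2 (log2 fold change -1.51), Egr1 (-1.01) and Atf3 (1.79) were still called by edgeR and Fos (-0.59) was not.

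**Figure D3:**
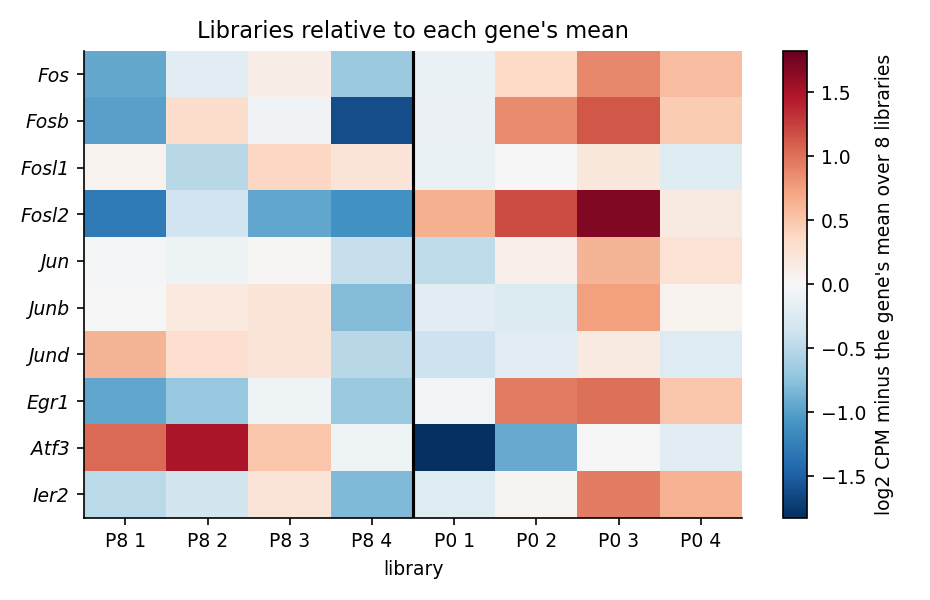
Log2 CPM of each gene in each library minus the mean of that gene over the 8 libraries, P8 left of the line and P0 right of it. P0 3 is the highest P0 library for all 10 genes. Atf3 lies above its mean in P8 1 to P8 3 and close to it in P8 4. Fosl2 and Egr1 lie below their means in every P8 library, Egr1 only slightly in P8 3.

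Ratios of genes within a library do not depend on the scaling between libraries. The summed RPKM of the 4 FOS genes over that of the 3 JUN genes was 0.679, 1.18, 1.33 and 1.24 in P8 1 to P8 4, against 1.63, 2.01, 1.72 and 1.87 in P0 1 to P0 4. Each P8 ratio was below each P0 ratio, and P8 1 was the lowest. The ratio of Fos to Jun was 2.35 ± 0.63 at P8 and 3.43 ± 0.0921 at P0 (SD, n = 4), also without overlap. Within P0 it lay between 3.35 and 3.56 although the level of Fos itself spanned 878 to 1752 CPM. The ratio of Atf3 to Jun was 1.0 ± 0.41 at P8 and 0.291 ± 0.0769 at P0, without overlap. These ratios were chosen after the values of the genes were known and are given as a description, without a test. Fos held most of the summed RPKM of the FOS genes, and Jun is in the denominator of all 3, so they are not separate observations. How often ratios of other genes differ without overlap was not computed. Ratios of Egr1 to Fos (0.362 ± 0.0539 at P8 and 0.464 ± 0.0955 at P0) and of Fosl2 to Fos (0.0158 ± 0.00389 at P8 and 0.0324 ± 0.0107 at P0) were computed as well, and in both the ages overlapped.

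**Figure D4:**
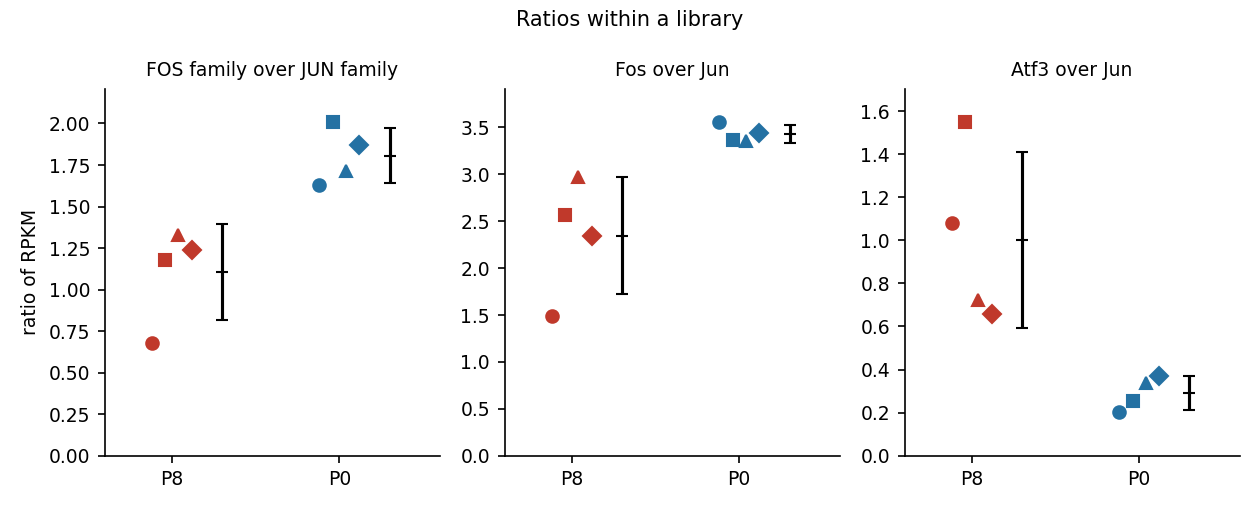
Ratios of RPKM within each library, with P8 in red left of P0 in blue, 1 marker shape per replicate number and the mean ± SD of 4 libraries at the side. The ages do not overlap in the 3 ratios drawn, of 5 computed, and the Fos to Jun ratio of the P0 libraries lies between 3.35 and 3.56.

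The make-up of each family is given as shares of its summed RPKM, also as a description. Fos held 88.5 ± 3.5% of the summed RPKM of the FOS genes at P8 and 85.7 ± 2.47% at P0, and Fosb held 9.73 ± 3.51% at P8 and 11.3 ± 1.82% at P0 (SD, n = 4). Fosl2 held 1.39 ± 0.32% at P8 and 2.76 ± 0.87% at P0, where P0 4 stood apart at 1.45% and the other P0 libraries lay at 3.17% to 3.23%. In the JUN family, Jun held 41.8 ± 4.64% at P8 and 45.1 ± 4.51% at P0, and Junb held 41.8 ± 4.27% at P8 and 43.0 ± 4.4% at P0. Jund held 16.4 ± 2.52% at P8 and 11.8 ± 1.52% at P0, and was the 1 share among these families in which the ages did not overlap.

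Other early genes that encode nuclear factors gave 7 lower and 2 higher at P8 of 27 tested, with a median log2 fold change of -0.34. Klf4, a zinc finger factor, fell to 60.1 ± 24.2 CPM at P8, against 198 ± 42.8 CPM at P0 (edgeR adjusted p = 0.00133). The nuclear receptor gene Nr4a2 fell to 7.46 ± 1.12 CPM at P8, against 22.2 ± 6.32 CPM at P0 (edgeR adjusted p = 0.000452), and Cebpd, a basic leucine zipper factor gene, to 7.51 ± 1.61 CPM at P8, against 25.3 ± 9.41 CPM at P0 (edgeR adjusted p = 0.000608). Npas4, which is induced by calcium entry in neurons, rose to 2.68 ± 1.62 CPM at P8, against 0.357 ± 0.276 CPM at P0, with overlapping ages (edgeR adjusted p = 0.0156). It was near the floor at P0, with 0 CPM in P0 2, and stood at 0.598 CPM in P8 2. The neuron markers examined were all higher at P8 as well, with summed levels of 106 to 683 CPM at P8 and 29.2 to 104 CPM at P0. Their part in the difference of Npas4 was not tested.

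Early genes that encode effectors or feedback inhibitors gave 11 lower and 6 higher of 40 tested (median log2 fold change 0.18). Ctgf, a secreted matrix protein gene, fell to 5.74 ± 2.59 CPM at P8, against 134 ± 40.9 CPM at P0 (edgeR adjusted p = 2.34e-05). The kinase genes Sik1 and Sgk1 fell to 23.3 ± 8.04 and 87.6 ± 18.7 CPM at P8, against 158 ± 58.9 and 380.1 ± 86.8 CPM at P0 (edgeR adjusted p = 0.000104 and 6e-05). Hbegf, a ligand of the EGF receptor, rose to 82.4 ± 11.7 CPM at P8, against 10.5 ± 3.71 CPM at P0 (edgeR adjusted p = 1.21e-05). Both early gene lists had their highest summed level in P8 2 at P8 and in P0 3 at P0.

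A list of basic leucine zipper factor genes, some of whose products can dimerize with FOS or JUN proteins, gave 4 lower and 2 higher of 22 tested and 25 listed (median log2 fold change -0.03). Nfe2l1, a stress factor gene, fell to 202 ± 6.13 CPM at P8, against 454 ± 114 CPM at P0 (edgeR adjusted p = 0.000978). Maf and Atf1 also fell, to 36.7 ± 7.90 and 20.1 ± 1.96 CPM at P8, against 66.2 ± 11.6 and 34.5 ± 4.38 CPM at P0 (edgeR adjusted p = 0.0118 and 0.00427). Atf4, a translationally controlled stress factor gene, rose to 174 ± 21.9 CPM at P8, against 112 ± 37.9 CPM at P0 (edgeR adjusted p = 0.0313). That call did not stand when P0 1, P8 2 or P8 3 was left out.

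Kinases and promoter factors upstream of Fos and Jun gave 10 lower and 5 higher of 29 tested (median log2 fold change -0.08). The coactivator gene Mkl2 of serum response factor fell to 19.7 ± 2.23 CPM at P8, against 63.3 ± 13 CPM at P0 (edgeR adjusted p = 4.71e-05). Rps6ka2, a kinase gene downstream of ERK, fell to 35.3 ± 9.18 CPM at P8, against 118 ± 33.1 CPM at P0, and the p38 kinase gene Mapk13 to 0.642 ± 0.158 CPM at P8, against 7.99 ± 2.25 CPM at P0. Mapk10, the JNK gene of the nervous system, rose to 40.9 ± 6.35 CPM at P8, against 10.8 ± 3.11 CPM at P0 (edgeR adjusted p = 5.66e-05).

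Genes described as targets of AP-1 gave 6 lower and 5 higher of 23 tested and 28 listed (median log2 fold change 0.19). The keratin gene Krt18 fell to 2.02 ± 1.46 CPM at P8, against 128 ± 38.1 CPM at P0 (log2 fold change -5.91, and -6.51 without P8 4). The lipid kinase gene Sphk1 fell to 3.81 ± 1.12 CPM at P8, against 87.2 ± 52.7 CPM at P0, and the quinone reductase gene Nqo1 to 11.2 ± 2.77 CPM at P8, against 83.98 ± 7.23 CPM at P0. The cytokine gene Il1b rose to 123 ± 43.1 CPM at P8, against 16.3 ± 7.75 CPM at P0 (edgeR adjusted p = 0.000223). The microglia and macrophage markers given beside Atf3 were higher at P8 as well, and their part in the difference of Il1b was not tested. Choroid plexus markers, given below, were lower at P8, and their part in the falls named here was not tested.

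Heat shock and chaperone genes, only some of which are induced by stress or by preparation, gave 8 higher and 3 lower of 15 tested (median log2 fold change 0.48). Hspa1b and Hspa1a, near-identical copies whose reads may have been split and which are therefore uncertain, rose to 182.5 ± 111 and 158 ± 98.6 CPM at P8, against 5.57 ± 1.48 and 12.1 ± 2.98 CPM at P0. The small heat shock protein genes Hspb8 and Cryab fell to 20.4 ± 2.89 and 14.8 ± 5.02 CPM at P8, against 130.4 ± 29.8 and 49.3 ± 22.2 CPM at P0. The background shares of 25% lower and 24.5% higher apply to each of these lists.

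**Figure D5:**
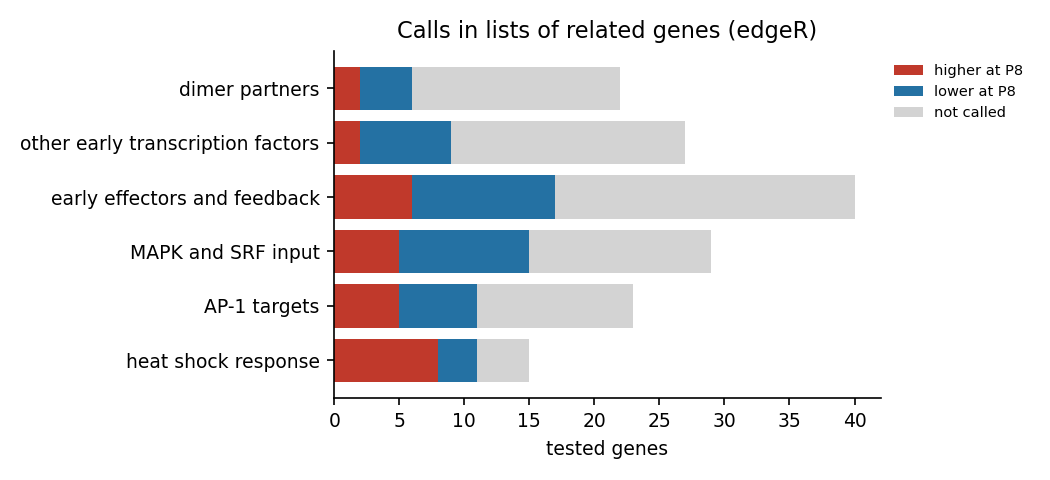
Number of tested genes called higher at P8 (red), called lower at P8 (blue) or not called (grey) in each list of related genes. The heat shock list has 8 higher and 3 lower, and each of the other lists has more lower than higher calls.

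The genes whose profile over the 8 libraries was most like that of Fos were sought among 15042 genes with a mean of at least 1 CPM. Likeness was the root mean square difference of log2 CPM after each gene was centred on its own mean. Outside the 10 genes the nearest were Il1rap (0.204), the early gene Cyr61 (0.206), Cep152 (0.219), Tctn3 (0.222) and Ints4 (0.225), against a median of 0.711 over all genes. Ier2 (0.212) ranked 3 and Egr1 (0.281) ranked 57 by closeness to Fos, while Fosl2 (0.663) ranked 6584 and Atf3 (1.29) ranked 12834. For Jun the nearest were Med25 (0.130), Itpk1 (0.137), Ccdc86 (0.139), the early gene Klf6 (0.140) and N4bp2l1 (0.144), against a median of 0.560. Junb (0.254) ranked 338 by closeness to Jun.

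Markers of other cell types moved with age in the same libraries. Markers of the choroid plexus and ependyma were lower at P8 for 10 of 10 genes (summed level without Ttr 66.9 to 201.5 CPM at P8 and 2344 to 4585 CPM at P0), and those of pericytes, smooth muscle and meninges for 7 of 10 (535 to 1390 CPM at P8 and 6759 to 12530 CPM at P0, highest in P0 1). Ttr itself stood at 176 to 2987 CPM at P8 and 22940 to 61700 CPM at P0, with a log2 fold change of -4.85, or -5.71 without P8 4. Endothelial markers were lower for 9 of 10 (346 to 730 CPM at P8 and 1886 to 2719 CPM at P0) and erythroid markers for 7 of 7 tested (106 to 229 CPM at P8 and 305 to 704 CPM at P0). Hba-a1 and Hba-a2 had equal values in every library, and so had Hbb-b1 and Hbb-b2. The erythroid genes are therefore not all separate measurements, and their sum may hold the same reads more than once. Oligodendrocyte lineage markers summed to 836 to 2964 CPM at P8 and 679 to 824 CPM at P0, with 6 higher and 1 lower of 10. Astrocyte markers were higher for 8 of 10 and lower for 1, Gjb6. The whole astrocyte list summed to 15170 to 17650 CPM at P8 and 1760 to 2758 CPM at P0. Radial glia markers were higher for 7 of 10 and lower for 2, Vim and Hes1. The whole radial glia list summed to 7692 to 9873 CPM at P8 and 1815 to 2494 CPM at P0. Slc1a3, on which the cells were sorted, is in both lists, and without it the radial glia markers summed to 3825 to 4845 CPM at P8 and 1516 to 2173 CPM at P0. Mobp and Mog, myelin genes, were at 0 in at least 1 library, and no other marker was. The part of each cell type in the differences of the 10 genes, or of the genes named from the other lists, was not tested.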

How the data were processed

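RNA of GLAST-sorted mouse brain cells was sequenced from TruSeq libraries, a kit that does not mark strand, per the labels' protocols. Alignment used TopHat with mm9, per the submitters' processing notes. No source used here names the read counter or the annotation. The authors deposited whole-number counts per gene, CPM (each count over its library total) and RPKM (CPM per kilobase of gene length), per the file headers. The authors' deposited table also holds a log2 fold change and a false discovery rate, which were copied only where named.

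The count test was that of edgeR 4.0.16 (R 4.3.3), with filterByExpr (minimum count 10, minimum total 15), TMM scaling, glmQLFit and glmQLFTest with all 8 libraries and no covariate, two-sided, adjusted over 16808 genes. DESeq2 1.42.0 and limma 3.58.1 served as alternatives. Scripts were tested on simulated data. Each SE was derived from the F statistic, whose degrees of freedom set the 95% intervals. Profiles used log2(CPM + 0.1). Depth limits only Fosl1, which had 74 to 237 counts per library, and counts of the other 9 genes were at least 1718.

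The genes and lists were chosen with earlier results of these data known. The text names all 10 genes, in each list at most 4 called genes (mean 1 CPM or more, by size of change), and the 5 nearest profiles. Promoter motifs, ratios and marker sums without Ttr or Slc1a3 were added after the values were seen.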

Additional observations from a re-analysis of the deposited data

Results flagged for a closer look

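Of 48 groups of 4 values examined, 4 held a library that stood apart by Dixon's ratio of gap to range above its 95% critical value. Chance flags about 1 in 20 such groups. The share of Fosl2 in the summed RPKM of the FOS genes was 1.45% in P0 4 and 3.17% to 3.23% in the other P0 libraries (ratio 0.967). The ratio of Fosl2 to Fos was 0.0164 in P0 4 and 0.0368 to 0.0384 in the other P0 libraries (ratio 0.926), a second view of the same library. The summed RPKM of the JUN genes was 249.9 in P8 4 and 398.5 to 415 in the other P8 libraries (ratio 0.9). The share of Jun in that sum was 48.7% in P8 4 and 38.5% to 40.1% in the other P8 libraries (ratio 0.848).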

How the results depend on the processing

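Settings other than the one reported were tried 15 times: relative log expression factors, total counts only, DESeq2, limma-voom, no filter, a mean of at least 1 CPM, the replicate number as a block and each library left out. Fosl2, Egr1, Jun and Fosl1 kept their sign and their side of the threshold in all 15. The count of genes called higher was 1 and became 0 with the replicate block, where Atf3 had an edgeR adjusted p of 0.056 (0.00125 to 0.056 over all settings), and lay between 1 and 2 with a library left out (2 without P8 4, when Jund joined). The count called lower was 3, was 4 with the block and with DESeq2 (Fosb joined), and lay between 2 and 4 with a library left out. Fos lost its call in 5 of the 8 fits without a library. With a library left out, the log2 fold change of Junb, which was never called, ran from -0.22 to 0.16. Over all genes, the counts called higher and lower stayed within 1.5 times those reported in every setting (3395 to 4577 higher and 3584 to 4805 lower). The replicate block gave 3638 genes called higher and 3717 lower, but the numbers did not pair the libraries: deviations from the mean of the age correlated at -0.131 to 0.0634 between libraries of the same number, and 1 of 8 libraries correlated best with its own number.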
